A study of Mus musculus with 12 samples.

Results

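Fatty acid oxidation and ketone body metabolism were followed in mouse kidney through 35 genes, taken by their symbols from a deposited table of 14091 genes. They comprised 3 genes of the carnitine shuttle (Cpt1a, Cpt2, Crat), 14 of mitochondrial beta-oxidation and its electron transfer (Acadm, Acadl, Acadvl, Acads, Hadh, Hadha, Hadhb, Acaa2, Echs1, Eci1, Decr1, Etfa, Etfb, Etfdh), 2 acyl-CoA thioesterases (Acot1, Acot2), 13 of the peroxisome (Ehhadh, Acaa1a, Acaa1b, Eci2, Decr2, Hsd17b4, Pex11a, Cat, Scp2, Abcd3, Hacl1, Phyh, Amacr) and 3 of ketone body metabolism (Bdh1, Oxct1, Acat1). All 35 were in the table and all 35 passed the filter on low counts, as did all 14091 genes of the table. Each member had at least 556 reads in each library, so no member entered through 1 group alone.

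The kidneys came from male C57BL/6 mice in 4 groups of 3. From 10 weeks of age, and for 12 weeks, the mice ate normal chow (ND), with 10% fat, 20% protein and 70% carbohydrate, or a diet rich in fat and sucrose (HFD), with 29% fat, 46.2% carbohydrate and 12.6% protein. They then had either 60 min of ischemia of the liver (hIRI), in the right median and the left lateral lobe, or a laparotomy without clamping (Sham). The groups are named by diet and surgery, as ND+Sham and HFD+Sham without ischemia and ND+hIRI and HFD+hIRI with it. Kidneys were taken 6 h later, so the kidney itself was never clamped, and all mice were wild type, with no drug named for any group.

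The tubule cells of the kidney, above all those of the proximal tubule, draw most of their energy from fatty acids. Long-chain fatty acids are carried into mitochondria as carnitine esters and are then shortened by repeated rounds of dehydrogenation, hydration, a second dehydrogenation and thiolytic cleavage, while peroxisomes handle very long, branched and dicarboxylic chains. Ketone bodies are made from the acetyl-CoA that results, chiefly in liver, and are oxidised back to acetyl-CoA in kidney, heart and brain; many of these genes are targets of the nuclear receptor PPAR alpha.

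Library totals ran from 20874584 to 29451344 counts. The first principal component held 54.4% of the variance, and on it ND+hIRI replicate 1 (-26.0) lay among the sham kidneys (-37.9 to -18.5), away from ND+hIRI replicates 2 and 3 (15.7 and 22.5), while HFD+hIRI replicate 1 lay farthest out (97.4). The summed level of 11 tubular injury markers was 1261 CPM in ND+hIRI replicate 1, 4477 and 5434 CPM in ND+hIRI replicates 2 and 3, and 22130, 10485 and 5411 CPM in the HFD+hIRI kidneys, against 1281 to 1604 CPM in the 6 sham kidneys. The sum of 16 proximal tubule markers was lowest in HFD+hIRI replicate 1 (41487 CPM) and otherwise lay between 46566 and 64030 CPM, so the tissue carried its defining markers in every library. As log2 differences from the ND+Sham mean, the median of the 16 stood at -0.63 for HFD+hIRI replicate 1, at -0.22 for replicate 2 of that group, and from -0.081 to 0.060 elsewhere. Distal nephron markers (10 of 10) summed to between 6412 and 8369 CPM. Of markers of other tissues, adipocyte markers (10 of 10) summed to between 123 and 458 CPM and were highest in ND+Sham replicate 2, leukocyte markers (8 of 11 in the table) to between 72.2 and 199.8 CPM, and hepatocyte markers (8 of 10) to between 1266 and 3387 CPM, mostly Cyp2e1 (1002 to 3288 CPM). Of the 8, Apoa1 (0.765 to 7.89 CPM) passed as higher with hIRI averaged over diet (2.17-fold, adjusted p = 0.0438), where 23.7% of all genes passed. There albumin, between 8.52 and 46.7 CPM, did not pass (log2 fold change 0.15, adjusted p = 0.752). Ttr and Serpina1c had negative log2 fold changes with hIRI and did not pass either. With HFD averaged over surgery, Serpina1c passed as lower (adjusted p = 0.0316), where 2.75% of all genes passed. Adrenal markers (3 of 9), mostly Akr1b7, moved with the groups: their sum was between 3.38 and 6.33 CPM in the sham kidneys, between 5.35 and 17.3 CPM in ND+hIRI, and 70.2, 29.2 and 35.9 CPM in HFD+hIRI. The library names carry numbers that fall into a lower run (ND+Sham replicate 1, ND+hIRI replicate 1, and HFD+Sham replicates 1 and 2) and, after a gap, a higher run (the other 8 libraries, with all 3 HFD+hIRI kidneys). No source used here says what the numbers stand for. In whole kidney, fewer cells of a type and less RNA per cell cannot be told apart. The part of these differences in the results that follow was not tested.

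The upstream regions of 3 of the 4 genes that passed a test below, and of the genes for both subunits of the trifunctional protein, are shown because they are the stretches in which regulatory motifs were counted. Each runs from 250 bases before the annotated start to 50 bases after it, on the gene's own strand, from RefSeq (GRCm38.p6). Capitals mark AGGTCA (the core repeat of nuclear receptor elements), CCAAT and GGGCGG on either strand, so that GGGCGG on the other strand reads CCGCCC.
Cpt1a, chr19:3323051-3323350, + strand: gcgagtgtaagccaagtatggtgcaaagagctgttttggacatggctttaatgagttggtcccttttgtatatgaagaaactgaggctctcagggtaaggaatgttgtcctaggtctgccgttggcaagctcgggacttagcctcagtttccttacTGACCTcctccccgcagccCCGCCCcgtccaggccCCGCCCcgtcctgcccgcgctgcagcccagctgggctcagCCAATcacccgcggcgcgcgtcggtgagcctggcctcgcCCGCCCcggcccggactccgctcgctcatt
Eci2, chr13:34994095-34994394, - strand: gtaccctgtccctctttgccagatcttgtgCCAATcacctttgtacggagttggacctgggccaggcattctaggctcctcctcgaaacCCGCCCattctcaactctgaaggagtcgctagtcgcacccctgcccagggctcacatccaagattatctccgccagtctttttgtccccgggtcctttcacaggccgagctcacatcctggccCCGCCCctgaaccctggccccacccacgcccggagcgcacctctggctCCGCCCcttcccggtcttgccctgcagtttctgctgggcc
Bdh1 first start, chr16:31422047-31422346, + strand: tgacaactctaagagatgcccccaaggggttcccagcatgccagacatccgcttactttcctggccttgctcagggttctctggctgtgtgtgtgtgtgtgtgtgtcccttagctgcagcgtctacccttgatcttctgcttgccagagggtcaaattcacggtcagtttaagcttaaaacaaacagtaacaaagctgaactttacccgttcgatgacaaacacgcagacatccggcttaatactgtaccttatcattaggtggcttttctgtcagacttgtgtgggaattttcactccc
Bdh1 second start, chr16:31428503-31428802, + strand: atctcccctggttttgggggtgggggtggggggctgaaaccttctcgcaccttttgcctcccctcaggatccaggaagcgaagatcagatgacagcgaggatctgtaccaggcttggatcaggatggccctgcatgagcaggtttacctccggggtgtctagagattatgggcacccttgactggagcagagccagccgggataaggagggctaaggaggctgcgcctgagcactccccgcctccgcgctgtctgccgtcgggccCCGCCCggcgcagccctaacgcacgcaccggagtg
Hadha, chr5:30154931-30155230, - strand: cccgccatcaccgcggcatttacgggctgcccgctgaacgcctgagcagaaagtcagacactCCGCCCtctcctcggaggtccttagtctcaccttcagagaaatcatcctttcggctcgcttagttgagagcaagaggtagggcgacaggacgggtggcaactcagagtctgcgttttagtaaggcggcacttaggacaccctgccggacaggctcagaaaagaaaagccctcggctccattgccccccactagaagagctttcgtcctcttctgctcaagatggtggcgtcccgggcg
Hadhb, chr5:30155003-30155302, + strand: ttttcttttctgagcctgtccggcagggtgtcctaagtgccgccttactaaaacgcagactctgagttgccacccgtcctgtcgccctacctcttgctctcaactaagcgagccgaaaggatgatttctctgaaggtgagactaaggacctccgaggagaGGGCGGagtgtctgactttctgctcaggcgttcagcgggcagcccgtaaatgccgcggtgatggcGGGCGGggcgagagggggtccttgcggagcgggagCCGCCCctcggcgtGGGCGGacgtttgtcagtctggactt
Hadha and Hadhb lie head to head, 272 bases apart, so their windows cover largely the same bases. GGGCGG stood in 3 places in the window of Cpt1a, 3 in that of Eci2, 4 in that of Hadhb and 1 in that of Hadha, against none at the first and 1 at the second start of Bdh1.

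RefSeq held 31 upstream regions for 29 of the 35 members, and none was matched for Crat, Acat1, Amacr, Decr1, Acaa2 or Hsd17b4. A full PPAR element, AGGTCANAGGTCA on either strand, was in 0 of the 31, as in 0.0366% of 13669 regions of the deposited genes, and the looser AGGNCANAGGNCA was also in 0 (0.263% of those regions). A single AGGTCA was in 7 of the 31 (22.6%, against 13.0% of the regions of deposited genes), those of Acadm, Acadvl, Cat, Cpt1a, Echs1, Phyh and Scp2. GGGCGG was in 67.7% against 60.0%, CCAAT in 41.9% against 36.9%, and CACGTG in 0 of 31 against 9.62%. These windows are short and hold no information on what binds there.

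The members were abundant in kidney. Per kb of summed exon length, mean levels over the 12 libraries were highest for Cat (513 CPM per kb), the catalase of the peroxisome, Acadm (501 CPM per kb), the medium-chain acyl-CoA dehydrogenase, and Phyh (468 CPM per kb), which starts the breakdown of phytanic acid. They were lowest for Hacl1 (20.0 CPM per kb), the lyase that completes that pathway, Acot2 (23.5 CPM per kb) and Crat (34.6 CPM per kb). Oxct1, the enzyme that commits ketone bodies to oxidation, was at 405.7 CPM per kb, and Bdh1, which interconverts 3-hydroxybutyrate and acetoacetate, at 35.8 CPM per kb. The spread between kidneys of a group was smallest for Etfa (pooled SD of 0.058 on the log2 scale) and Echs1 (0.077), and largest for Acot1 (0.582), Ehhadh (0.500) and Acaa2 (0.480). Some of these levels may be too high or too low because of sequence shared with other annotated genes. Of all 75-base stretches of the longest transcript, 66.3% for Etfb, 57.2% for Hadhb, 54.2% for Hacl1 and 36.8% for Scp2 also occur in another annotated gene. For the first 3 it is a predicted gene (Gm45233, Gm13910 and Gm49387) and for Scp2 the pseudogene Scp2-ps2. Whether the predicted genes overlap these members in the genome was not tested. How shared reads were counted is not given in the sources used here. Acaa1a and Acaa1b (27.3% and 28.5%) share stretches with each other, as Acot1 and Acot2 do for most of theirs (26.4% and 21.2%).

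**Figure D1:**
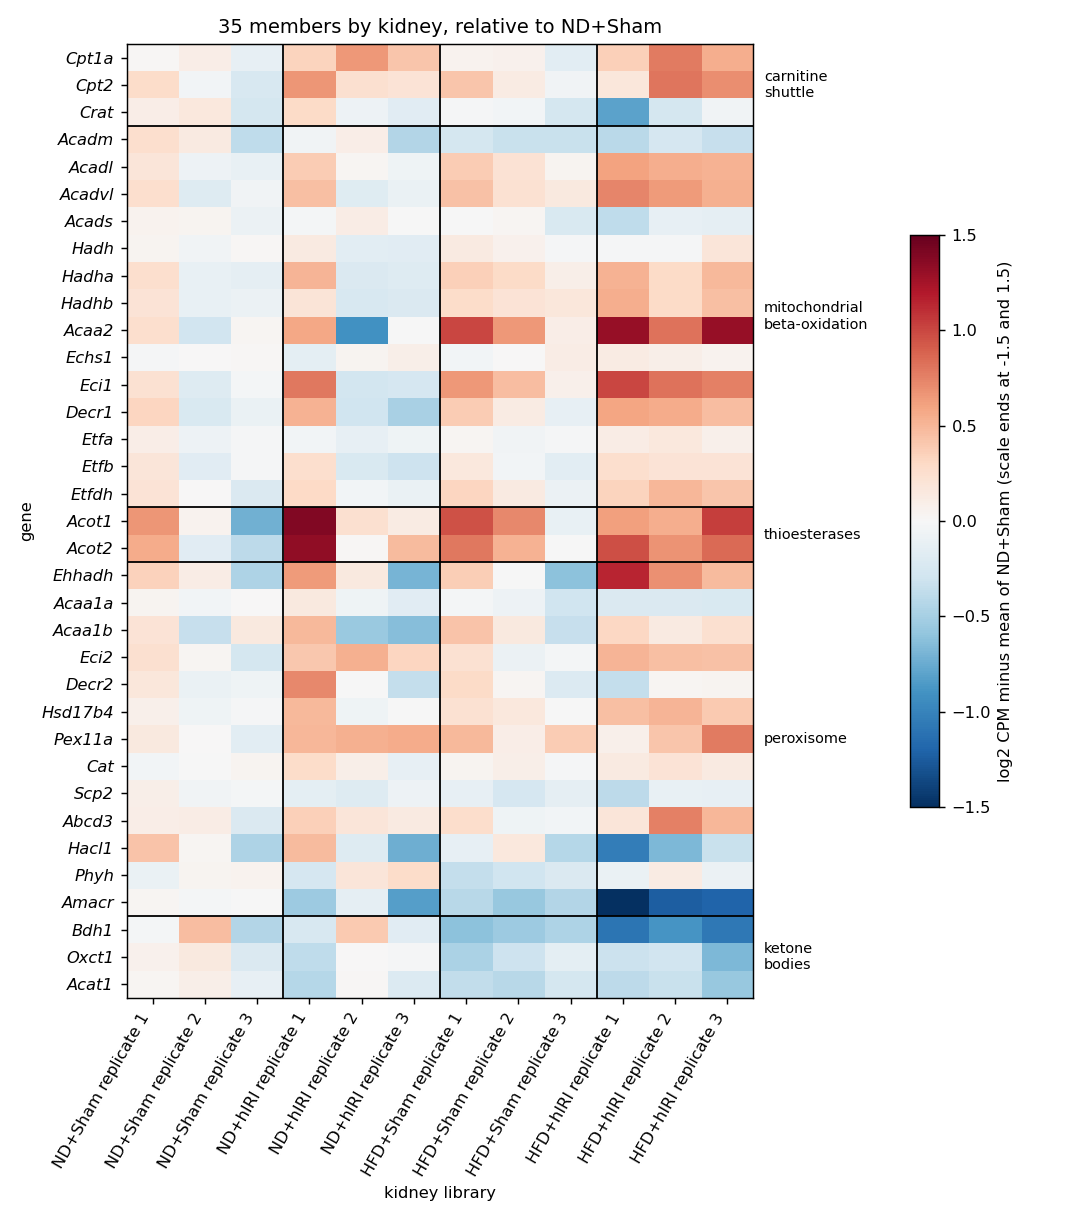
Level of each of the 35 members (rows, by role) in each kidney (columns, by group), as log2 CPM minus the mean of ND+Sham; red is higher and blue lower. Most mitochondrial rows are red in the 3 HFD+hIRI kidneys and in replicate 1 of the other groups, while Amacr and Bdh1 are darkest blue in HFD+hIRI.

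Between HFD+hIRI and ND+hIRI kidneys, a comparison of the diets after hepatic ischemia, 1 of the 35 members passed an adjusted p under 0.05 (edgeR quasi-likelihood test over all genes), Bdh1, which was lower; 1.35% of all genes passed. Beneath that threshold the members ran in different directions by role: the log2 fold change was positive for 12 of 14 mitochondrial genes, at a median of 0.36, where 50.5% of all genes were positive and their median was 0.0045, whereas the 13 peroxisomal genes had 6 positive and a median of -0.066 and all 3 ketone body genes were negative. Libraries of both groups did not overlap for 10 members (28.6%, against 23.7% of all genes), with 6 mitochondrial genes higher and Acads, Acaa1a, Amacr and Bdh1 lower.

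Between HFD+Sham and ND+Sham kidneys, the effect of diet without ischemia, 0 members passed by edgeR's quasi-likelihood test, where 0.0142% of all genes did. Acat1 and Bdh1, both lower, were the 2 under an unadjusted p of 0.05, as were 8.8% of all genes. The edgeR likelihood ratio test, DESeq2 and limma voom with quality weights also called 0, where they called 0.319%, 0.938% and 2.17% of all genes. The 5 members whose libraries did not overlap, Scp2, Phyh, Amacr, Bdh1 and Acat1, were all lower in HFD+Sham (14.3%, against 25.2% of all genes in either direction and 12.5% as lower). The direction of the mitochondrial genes was positive in 10 of 14, with a median of 0.12.

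Between HFD+hIRI and HFD+Sham kidneys, the response to hepatic ischemia on the high fat diet, 3 members passed where 19.9% of all genes did: Cpt1a and Eci2 were higher and Amacr was lower. That is 8.57% of the members, a smaller share than among all genes. The libraries did not overlap for 16 members (45.7%, against 46.7% of all genes). Higher without overlap were 14 of the 35 members, where 23.1% of all genes were. Among these members were 8 of the 14 mitochondrial genes (Acadl, Acadvl, Hadhb, Eci1, Decr1, Etfa, Etfb and Etfdh). Both this comparison and that with ND+hIRI use the same HFD+hIRI kidneys.

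Between ND+hIRI and ND+Sham kidneys, the same response on normal chow, 0 members and 0% of all genes passed; 3 members (Cpt1a, Pex11a and Eci2, all higher) were under an unadjusted p of 0.05, as were 14.4% of all genes, and DESeq2 and limma voom with quality weights each called Cpt1a while edgeR's likelihood ratio test called 0, where these tests called 3.15%, 4.36% and 2.41% of all genes. The mitochondrial genes were positive in 6 of 14 with a median of -0.0053, and none of them was without overlap; of all genes, 21.6% were. Without ND+hIRI replicate 1, the kidney that lay among the shams, 0 members still passed, where 3.77% of all genes did. With HFD+hIRI replicate 1 left out as well Cpt1a and Pex11a passed, 2 of 35 where 16.5% of all genes did, a smaller share than among all genes.

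The interaction, whether the response to ischemia differed between diets, was past the threshold for 0 members and 0.0142% of all genes. Under an unadjusted p of 0.05 there were 0 members, where 10.1% of all genes were. By edgeR's likelihood ratio test, DESeq2 and limma voom 0 members passed, where these tests called 0.0568%, 0.285% and 0.0284% of all genes. The smallest p-values were those of Etfa, an electron transfer flavoprotein subunit (log2 fold change 0.21, adjusted p = 0.521), and Pex11a, a peroxisome division protein (log2 fold change -0.40, adjusted p = 0.538). For Etfa the levels were 450.5, 401 and 415.9 CPM in ND+Sham, 411, 387 and 405 CPM in the ND+hIRI group, 430.1, 405 and 415.3 CPM in HFD+Sham and 457, 472 and 444 CPM in HFD+hIRI. Averaged over surgery, HFD against ND kidneys gave 1 member (Bdh1, lower) where 2.75% of all genes passed, and averaged over diet, hIRI against Sham kidneys gave 3 (Cpt1a and Eci2 higher, Amacr lower) where 23.7% of all genes did.

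**Figure D2:**
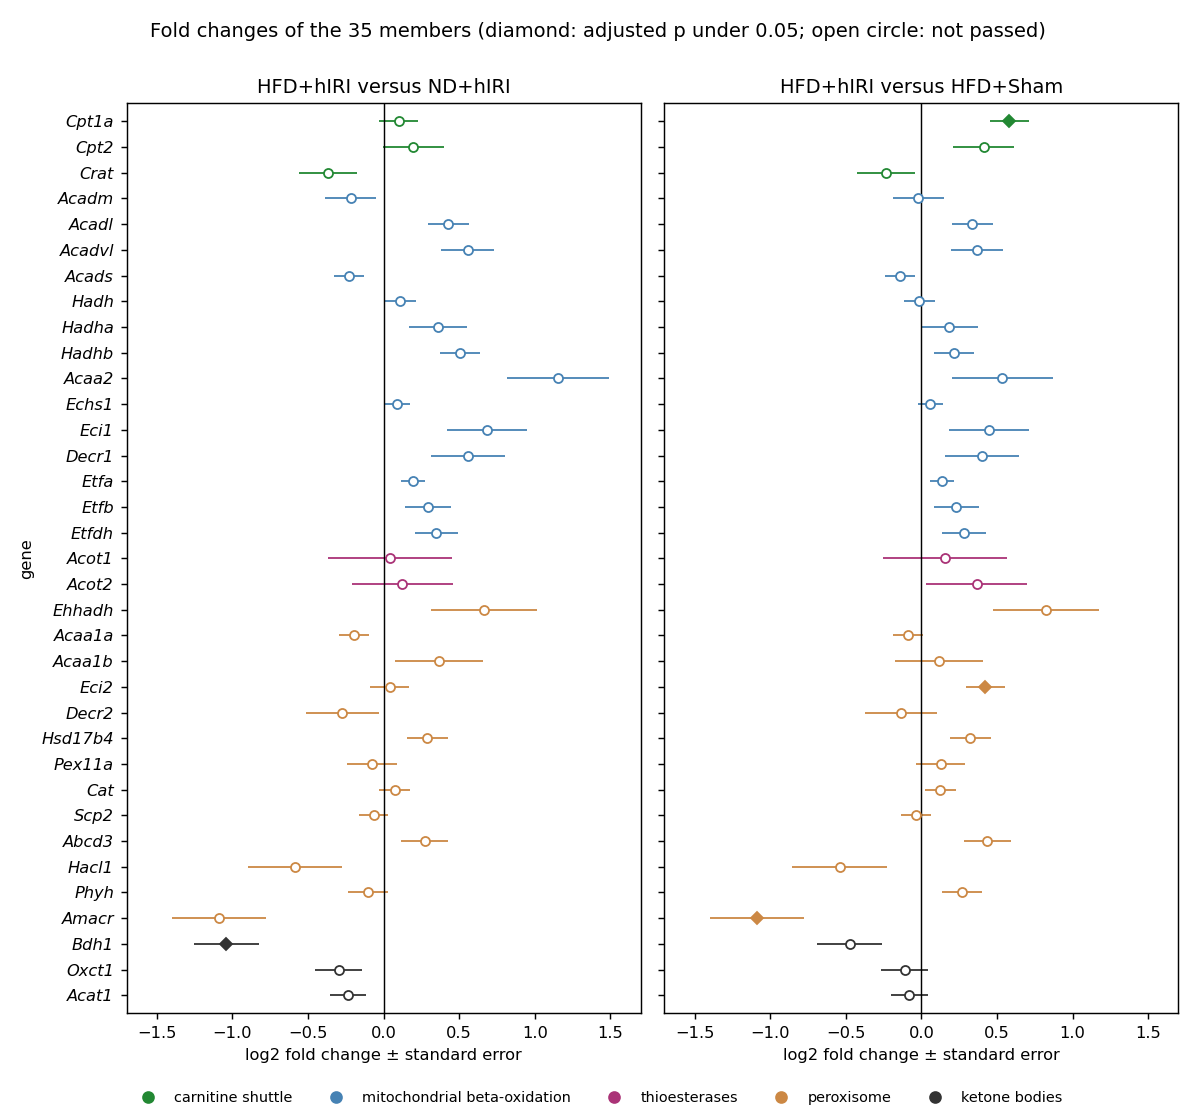
Log2 fold change of each member with its standard error, for HFD+hIRI against ND+hIRI (left) and against HFD+Sham (right), coloured by role. Diamonds passed an adjusted p under 0.05: Bdh1 on the left, and Cpt1a, Eci2 and Amacr on the right.

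The gene for the gate of mitochondrial fatty acid oxidation rose with hepatic ischemia. Cpt1a, which forms the carnitine ester at the outer mitochondrial membrane and is the rate-controlling step, was at 678, 722 and 618 CPM in the ND+Sham kidneys and 697, 703 and 601 CPM in HFD+Sham. After ischemia it stood at 848, 1051 and 893 CPM in ND+hIRI and 863, 1149 and 979.8 CPM in HFD+hIRI. All 6 hIRI kidneys were above all 6 sham kidneys, and the levels of both diets overlapped. The change was 1.44-fold averaged over diet (0.52 ± 0.091 on the log2 scale, SE, edgeR adjusted p = 0.00775), 0.58 on HFD (adjusted p = 0.0197) and 0.47 on ND (adjusted p = 0.178); the difference between diets was 0.11 ± 0.18 and did not pass. The averaged call held in all 12 fits that left out 1 library, while that on HFD missed the threshold without HFD+Sham replicate 1 (0.0563), HFD+Sham replicate 2 (0.0765) and HFD+Sham replicate 3 (0.0799), the adjusted p being in parentheses. With the run of library numbers in the model the averaged call held (adjusted p = 0.0252) and that on HFD did not (0.0819).

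Cpt2, which returns the acyl group to CoA at the inner membrane, was at 262, 213 and 189 CPM in HFD+Sham and 221, 344 and 318 CPM in HFD+hIRI, which overlapped. Its averaged change with ischemia, 0.39 ± 0.14 (SE), did not pass (edgeR adjusted p = 0.068). Crat, which exchanges short acyl groups between carnitine and CoA, lay between 92.7 CPM in HFD+hIRI replicate 1 and 198 CPM in ND+hIRI replicate 1, with overlap in every comparison of 2 groups. Crat shares 54 exonic bases with Dolpp1 on the opposite strand, and whether the counting used strand is not given in the sources used here.

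**Figure D3:**
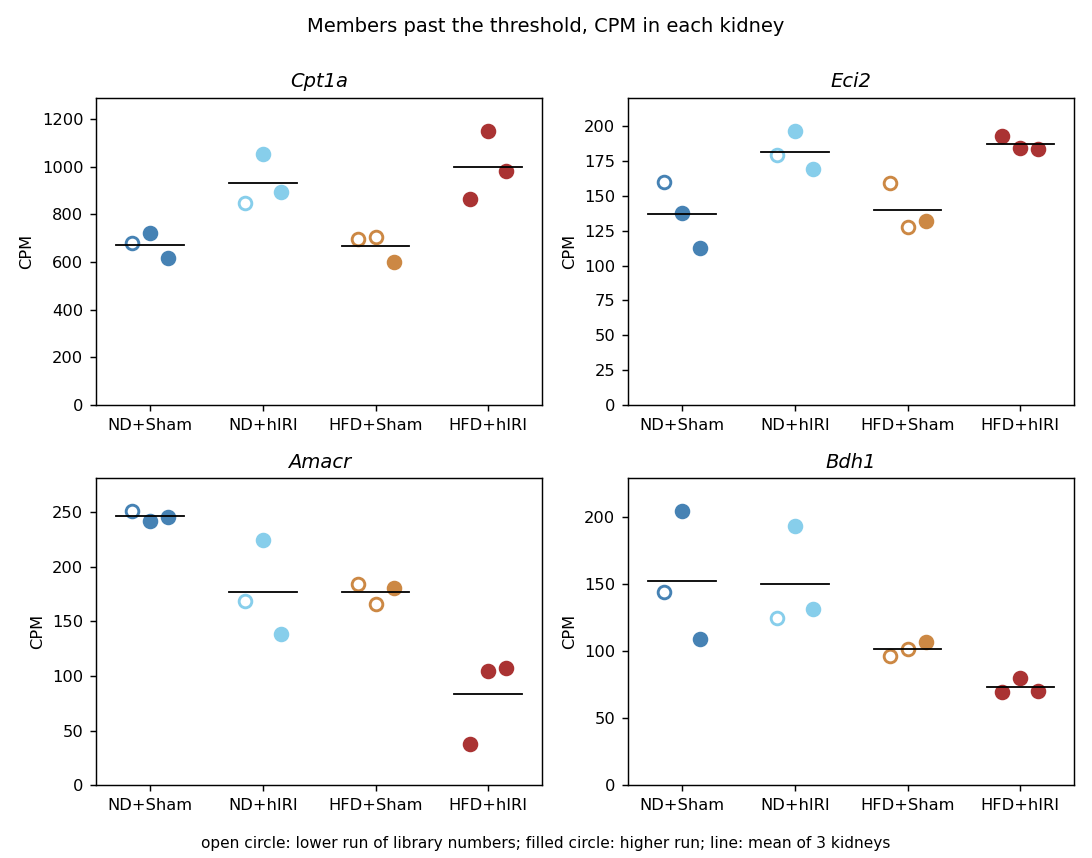
CPM of Cpt1a, Eci2, Amacr and Bdh1 in each kidney by group; the line is the mean of 3 kidneys, open circles are the lower run of library numbers and filled circles the higher. Cpt1a and Eci2 stand higher in both hIRI groups, and Amacr and Bdh1 are lowest in HFD+hIRI.

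The largest fold changes among the mitochondrial genes were those of Acaa2, a thiolase of mitochondrial beta-oxidation. It was at 346, 124 and 231 CPM in ND+hIRI and 576, 409 and 578 CPM in HFD+hIRI, without overlap, and at 277, 191 and 237 CPM in ND+Sham and 464, 366 and 248 CPM in HFD+Sham, where only HFD+Sham replicate 3 fell within the range of ND+Sham. The difference after ischemia was 2.23-fold (log2 fold change 1.16 ± 0.34, SE, n = 3 per group, adjusted p = 0.0858) and that averaged over surgery was 0.88 ± 0.24 (adjusted p = 0.0709), neither past the threshold.

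The genes of the long-chain steps had the same direction. Acadvl, the dehydrogenase for very long chains, was at 568, 365 and 388 CPM in ND+hIRI and 691, 648 and 601 CPM in HFD+hIRI (log2 fold change 0.56 ± 0.17, SE, n = 3 per group, adjusted p = 0.0932). Acadl, the long-chain dehydrogenase, was at 512, 401 and 374 CPM against 595, 571 and 565 CPM in the same groups (log2 fold change 0.43, adjusted p = 0.0941). Hadhb, the thiolase subunit of the trifunctional protein, was at 304, 226 and 229.8 CPM against 388, 326 and 365 CPM (log2 fold change 0.51, adjusted p = 0.073), and its partner Hadha at 475, 288 and 292 CPM against 481, 406.7 and 467 CPM, where ND+hIRI replicate 1 lay within the HFD+hIRI range (log2 fold change 0.36, adjusted p = 0.24). Each of Acadvl, Acadl and Hadhb was higher in all 3 HFD+hIRI kidneys than in any ND+hIRI kidney, and none passed.

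The auxiliary isomerase Eci1 and reductase Decr1, which let unsaturated chains enter the pathway, differed among the ND+hIRI kidneys. Eci1 was at 172, 82.4 and 83.5 CPM in ND+hIRI and 199.6, 174 and 168 CPM in HFD+hIRI, and Decr1 at 452, 255 and 225 CPM and 475, 464 and 433 CPM. Replicate 1 of ND+hIRI lay within the HFD+hIRI range for both genes, and the other pair of ND+hIRI kidneys lay below it. The log2 fold changes were 0.68 (adjusted p = 0.135) for Eci1 and 0.56 (adjusted p = 0.174) for Decr1.

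The genes that carry electrons from the dehydrogenases to ubiquinone differed by less. Etfdh, the ubiquinone oxidoreductase, was at 323, 256 and 244 CPM in ND+hIRI and 330.0, 369.8 and 349.7 CPM in HFD+hIRI (log2 fold change 0.35, adjusted p = 0.154), without overlap. On the log2 scale Etfa differed by 0.19 (adjusted p = 0.15), also without overlap, and Etfb by 0.29 (adjusted p = 0.235). For Etfb, ND+hIRI replicate 1 (452.2 CPM) lay just above the highest HFD+hIRI kidney (452.1 CPM). Acadm, Acads, Hadh and Echs1, genes of medium-chain and short-chain steps, had negative or small differences. Acadm was at 1123, 1250.3 and 862 CPM in ND+hIRI and 881, 979.5 and 922 CPM in HFD+hIRI (log2 fold change -0.22, adjusted p = 0.411), and Acads, the short-chain dehydrogenase, at 206, 226 and 209 CPM and 162, 194 and 192 CPM (log2 fold change -0.23, adjusted p = 0.176), lower in all 3 HFD+hIRI kidneys. Hadh and Echs1, the short-chain hydroxyacyl-CoA dehydrogenase and enoyl-CoA hydratase, differed by 0.11 and 0.088 on the log2 scale and overlapped.

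Whether mitochondrial genes passed turned on the test and on the libraries. Of the 14, 0 passed in HFD+hIRI against ND+hIRI by edgeR's quasi-likelihood test and 9 were under an unadjusted p of 0.05 (27.2% of all genes were, 14.9% as higher). The edgeR likelihood ratio test called 2 (Acaa2 and Hadhb), DESeq2 called 5 (Acaa2, Acadl, Acadvl, Etfa and Hadhb), and limma voom with quality weights called 4 (Acadl, Acadvl, Eci1 and Hadhb), all higher in HFD+hIRI, where these tests called 7.82%, 12.6% and 5.20% of all genes. The direction itself was positive in 12 of 14 under every alternative but scaling by library totals alone, where it was 10 of 14; that scaling moved the median of all genes by 0.114 downwards, and relative to it the median of the 14 was 0.35 in both.

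The levels also followed the library numbers. In ND+Sham, ND+hIRI and HFD+Sham, replicate 1, each of the lower run, was the highest of the 3 kidneys for 26, 23 and 26 of the 35 members. With group in the model, 29 of the 35 members (82.9%) and 13 of the 14 mitochondrial genes were higher in the lower run, against 49.5% of all genes, with a median log2 difference of 0.32 for the mitochondrial genes, although 0 members and 0% of all genes passed. These are values chosen after the data were seen. All 3 HFD+hIRI kidneys are of the higher run, so within that run they can be set against ND+hIRI replicates 2 and 3 alone. There 11 of the 14 mitochondrial genes (78.6%, against 16.4% of all genes) were higher in all 3 HFD+hIRI kidneys, and 1 (Acads) was lower in all 3. This restriction leaves out ND+hIRI replicate 1, the highest kidney of its group for 11 of the 14 mitochondrial genes. Less overlap follows in part from that choice, so the share is not independent evidence of a difference. With the run as covariate, Acaa2, Acadl, Acadvl, Decr1, Eci1 and Hadhb passed in HFD+hIRI against ND+hIRI (6 members, 0.646% of all genes) and Bdh1 no longer did. With the 8 libraries of the higher run alone, 0 members passed in any comparison, and HFD+Sham is then 1 kidney whose spread is assumed to be that of the other groups.

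Leaving out ND+hIRI replicate 1, the kidney with sham-like injury markers, raised the median log2 fold change of the 14 mitochondrial genes in HFD+hIRI against ND+hIRI from 0.36 to 0.53. Only Eci1 then passed in that comparison, and in HFD against ND averaged over surgery 7 members passed as higher (Acaa2, Acadl, Acadvl, Eci1, Hadha, Hadhb and Hsd17b4) beside Bdh1, in place of Bdh1 alone. Of all genes, 0.376% passed in the former and 2.14% in the latter. Without HFD+hIRI replicate 1 the same median was 0.35.

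**Figure D4:**
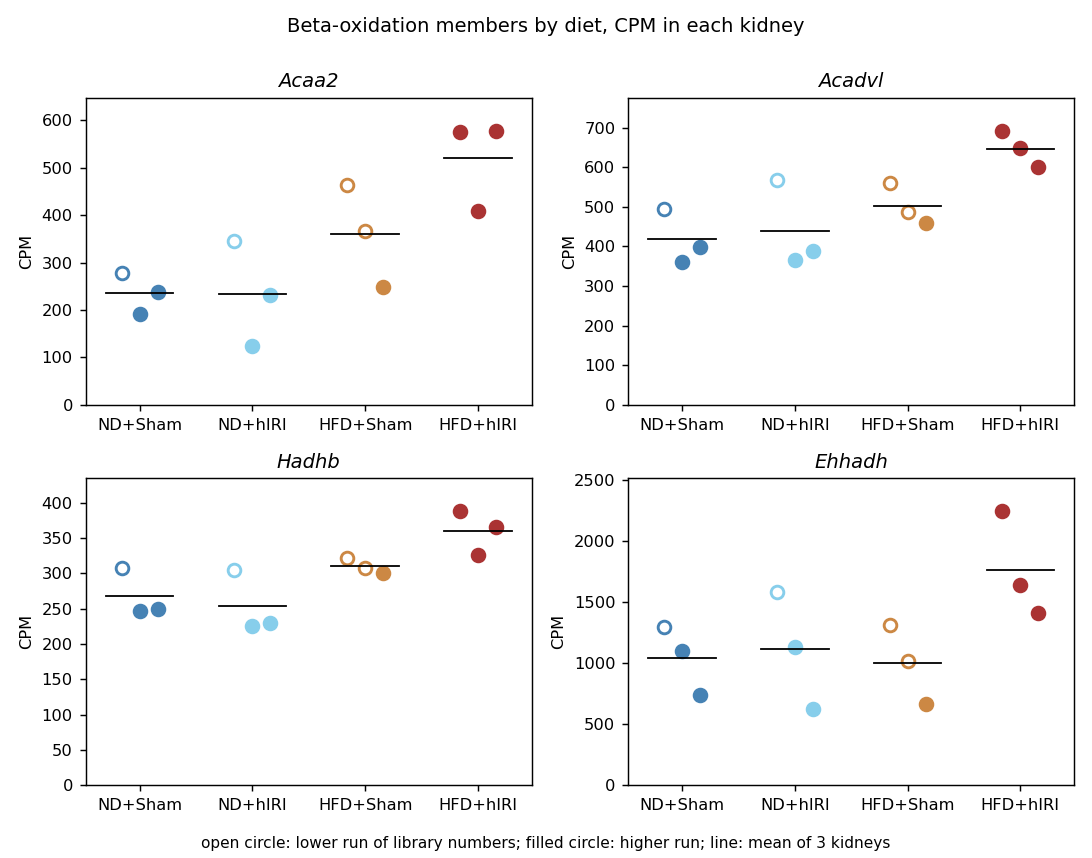
CPM of Acaa2, Acadvl, Hadhb and the peroxisomal Ehhadh in each kidney; lines are means of 3 kidneys, open circles are the lower run of library numbers and filled circles the higher. In ND+Sham, ND+hIRI and HFD+Sham the first kidney, an open circle, is the highest of the 3 for all 4 genes; HFD+hIRI holds the highest mean of each.

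The thioesterases Acot1 (cytosolic) and Acot2 (mitochondrial), which release free fatty acids from CoA, are neighbours on chromosome 12 and near copies, so they are described as a pair. Acot1 was at 105, 69.2 and 40.5 CPM in ND+Sham, 175, 78.6 and 72.2 CPM in the ND+hIRI group, 129, 109.8 and 61.9 CPM in HFD+Sham and 102, 96.8 and 136 CPM in HFD+hIRI, and Acot2 at 26.9 to 52.0 CPM in ND+Sham, 35.7 to 88.9 CPM in the ND+hIRI group, 35.2 to 61.0 CPM in HFD+Sham and 56.4 to 69.2 CPM in HFD+hIRI. Replicate 1 was the highest in ND+Sham, ND+hIRI and HFD+Sham for both. No comparison passed, the smallest adjusted p being 0.129 for Acot2 with ischemia averaged over diet, and the difference with library number (1.04 for Acot1 and 0.86 for Acot2 on the log2 scale) was the largest of any member.

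In the peroxisome, 2 genes passed and they moved in opposite directions. Eci2, an isomerase for unsaturated fatty acids, was at 159.9, 138 and 113 CPM in ND+Sham and 179, 197 and 169.6 CPM in ND+hIRI, and at 159, 127 and 132 CPM in HFD+Sham and 193, 184 and 184 CPM in HFD+hIRI. All 6 hIRI kidneys were above all 6 sham kidneys. It rose 1.33-fold with ischemia averaged over diet (0.42 ± 0.092 on the log2 scale, SE, edgeR adjusted p = 0.0138), by 0.42 on HFD (adjusted p = 0.0437) and by 0.41 on ND without passing (adjusted p = 0.215). The averaged call held in all 12 fits without 1 library, and that on HFD did not hold without ND+Sham replicate 2 (0.0601), ND+hIRI replicate 2 (0.0515), ND+hIRI replicate 3 (0.0507), HFD+Sham replicate 1 (0.0588), HFD+Sham replicate 2 (0.148), HFD+Sham replicate 3 (0.139), HFD+hIRI replicate 1 (0.103) and HFD+hIRI replicate 2 (0.0763), with the adjusted p in parentheses, nor with upper quartile scaling (0.0933), library totals alone (0.126), at least 10 counts in every library (0.0522), only the libraries compared (0.0651), the run of library numbers as covariate (0.0837), ND+hIRI replicate 1 and HFD+hIRI replicate 1 both left out (0.0828), or the 8 libraries of the higher run (0.354).

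Amacr, the racemase that prepares branched fatty acids and bile acid intermediates for peroxisomal oxidation, was lowest in HFD+hIRI. It was at 251, 241 and 246 CPM in ND+Sham, 168, 224 and 139 CPM in the ND+hIRI group, 184, 166 and 181 CPM in HFD+Sham and 38.0, 104 and 107 CPM in HFD+hIRI. Each of the other 3 groups lay wholly below ND+Sham, HFD+hIRI lay wholly below every other group, and ND+hIRI and HFD+Sham overlapped. The fall on HFD was to 0.47 of the sham level (log2 fold change -1.09 ± 0.31, SE, n = 3 per group, adjusted p = 0.0356), and averaged over diet the change was -0.78 ± 0.22 (adjusted p = 0.0295). HFD+hIRI replicate 1, at 38.0 CPM, is also the kidney with the most injury marker RNA (22130 CPM) and the least proximal tubule marker RNA (41487 CPM); without it the fall on HFD was -0.75 (adjusted p = 0.0283). The call on HFD was lost without ND+Sham replicate 1 (0.0518), ND+Sham replicate 2 (0.0504), HFD+Sham replicate 1 (0.087), HFD+Sham replicate 2 (0.0946) and HFD+Sham replicate 3 (0.0924), and the averaged one without ND+Sham replicate 1 (0.0582), ND+Sham replicate 2 (0.0506), ND+Sham replicate 3 (0.0579), ND+hIRI replicate 3 (0.072), HFD+Sham replicate 1 (0.0591), HFD+Sham replicate 2 (0.0582) and HFD+Sham replicate 3 (0.0617), with adjusted p in parentheses. Both were also lost with the run of library numbers as covariate (adjusted p = 0.106 on HFD and 0.0645 averaged).

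Ehhadh, the bifunctional enzyme of peroxisomal oxidation and a classical PPAR alpha target, had the largest positive log2 fold change of any member in HFD+hIRI against HFD+Sham, with 1314, 1016 and 662 CPM in HFD+Sham and 2245, 1637 and 1411 CPM in HFD+hIRI. It was at 1296, 1096 and 740.3 CPM in ND+Sham and 1583, 1129 and 625 CPM in ND+hIRI, and within each of the 4 groups replicate 1 was the highest kidney. The difference on HFD (log2 fold change 0.82 ± 0.35, SE, n = 3 per group, adjusted p = 0.106) did not pass. Abcd3, a transporter of fatty acids into the peroxisome, was at 583, 467 and 475 CPM in HFD+Sham and 554, 821 and 688 CPM in HFD+hIRI (log2 fold change 0.44, adjusted p = 0.0647), and averaged over diet its change of 0.33 had an adjusted p of 0.0501, just outside the threshold. Hsd17b4, the second bifunctional enzyme, was higher in all 3 HFD+hIRI than in all 3 HFD+Sham kidneys (log2 fold change 0.32, adjusted p = 0.103).

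Pex11a, which drives peroxisome division, was at 37.6, 34.2 and 30.5 CPM in ND+Sham, 48.2, 49.2 and 50.03 CPM in the ND+hIRI group, 47.6, 36.3 and 44.2 CPM in HFD+Sham and 35.7, 45.5 and 58.6 CPM in HFD+hIRI. The groups on ND did not overlap and those on HFD did; the log2 fold changes were 0.53 (adjusted p = 0.213) on ND and 0.13 (adjusted p = 0.58) on HFD, and their difference was not past the threshold. Cat was 1208 to 1282 CPM in ND+Sham and 1364 to 1438 CPM in HFD+hIRI, with no adjusted p under 0.283 in the 7 comparisons. Of the genes for branched chains and lipid carriage, Phyh was lower in all 3 HFD+Sham than in all 3 ND+Sham kidneys (log2 fold change -0.29, adjusted p = 0.566), Scp2, a thiolase and lipid carrier, likewise (log2 fold change -0.17, adjusted p = 0.659), and Hacl1 was at 43.0 to 79.5 CPM in ND+Sham and 28.7 to 46.9 CPM in HFD+hIRI (for diet averaged over surgery, log2 fold change -0.37, adjusted p = 0.321). The thiolases Acaa1a and Acaa1b, near copies on chromosome 9, had log2 fold changes of -0.20 and 0.36 in HFD+hIRI against ND+hIRI, and Decr2, the peroxisomal dienoyl-CoA reductase, by -0.27; none passed.

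All 3 ketone body genes had negative log2 fold changes with HFD, and Bdh1 passed. Bdh1, the mitochondrial 3-hydroxybutyrate dehydrogenase, was at 144, 204 and 109 CPM in ND+Sham, 125, 194 and 132 CPM in the ND+hIRI group, 96.2, 101 and 107 CPM in HFD+Sham and 69.3, 79.7 and 69.9 CPM in HFD+hIRI. All 6 HFD kidneys were below all 6 ND kidneys, and HFD+hIRI lay wholly below HFD+Sham. The level on HFD was 0.569 of that on ND averaged over surgery (-0.81 ± 0.15 on the log2 scale, SE, edgeR adjusted p = 0.0264), and 0.486 in HFD+hIRI against ND+hIRI (-1.04 ± 0.22, adjusted p = 0.0485); between the sham groups the log2 fold change was -0.59 (adjusted p = 0.46) and the interaction -0.45 (adjusted p = 0.573). The call after ischemia stood close to the threshold and was lost without ND+Sham replicate 1 (0.0761), ND+hIRI replicate 1 (0.0645), ND+hIRI replicate 2 (0.135), ND+hIRI replicate 3 (0.0587), HFD+Sham replicate 1 (0.0841), HFD+Sham replicate 2 (0.0837), HFD+Sham replicate 3 (0.0823), HFD+hIRI replicate 1 (0.113) and HFD+hIRI replicate 2 (0.0801), with the adjusted p in parentheses. The averaged call was lost without ND+Sham replicate 1 (0.0522), ND+Sham replicate 2 (0.0538), ND+hIRI replicate 2 (0.0514), HFD+Sham replicate 1 (0.0819), HFD+Sham replicate 2 (0.07) and HFD+Sham replicate 3 (0.0697), and held with the run of library numbers as covariate (adjusted p = 0.0304).

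Acat1, the mitochondrial thiolase that joins or splits acetoacetyl-CoA, was at 997, 1044 and 903 CPM in ND+Sham and 759, 734 and 815 CPM in HFD+Sham, without overlap (log2 fold change -0.35, adjusted p = 0.435), and its change with diet averaged over surgery was -0.29 ± 0.085 (SE, edgeR adjusted p = 0.0861). In the hIRI groups it was at 729.5, 991 and 848 CPM on ND and 744, 778 and 660.5 CPM on HFD, which overlapped. Oxct1 was at 1391 to 1800.1 CPM in ND+Sham, 1241 to 1634 CPM in the ND+hIRI group, 1169 to 1461 CPM in HFD+Sham and 1015 to 1332 CPM in HFD+hIRI, overlapping in each of the 4 comparisons of 2 groups, with a log2 fold change of -0.30 (adjusted p = 0.137) for diet averaged over surgery. Some of its exonic bases lie within BC037032 on the opposite strand. The proximal tubule marker sum ran from 41487 to 55692 CPM in the 6 HFD kidneys and from 46566 to 64030 CPM in the 6 ND kidneys, and its part in these lower levels was not tested.

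Beyond the members, 43 further genes of fatty acid oxidation and ketone metabolism were listed, of which 40 were in the table. In HFD+hIRI against ND+hIRI Slc16a1 was higher and Abcd4 lower, where 1.35% of all genes passed. In HFD+hIRI against HFD+Sham 4 of the 40 were higher and 3 lower, where 19.9% of all genes passed. With ischemia averaged over diet 5 were higher and 2 lower, where 23.7% of all genes passed. For HFD averaged over surgery 1 was higher and 2 were lower (Abcd4 and Acox2, the branched-chain oxidase), where 2.75% of all genes passed. Slc16a1, a carrier of lactate and ketone bodies, rose both with ischemia averaged over diet (log2 fold change 1.42, adjusted p = 0.00433) and with HFD averaged over surgery (log2 fold change 1.00, adjusted p = 0.0133); its levels were 37.0, 33.2 and 42.5 CPM in ND+Sham and 159, 213 and 234 CPM in HFD+hIRI. Slc16a1 stood at 77.8, 57.2 and 107 CPM in the ND+hIRI group. The peroxisomal carnitine transferase Crot (log2 fold change 0.86, adjusted p = 0.0323) and thioesterase Acot8 (log2 fold change 0.63, adjusted p = 0.0173) were higher on HFD after ischemia, and the acyl-CoA dehydrogenase Acad12 (log2 fold change -0.79, adjusted p = 0.0191) and Abcd4 (log2 fold change -0.73, adjusted p = 0.025), a cobalamin carrier of the lysosome, were lower. On ND the log2 fold changes with ischemia were 0.16 for Crot, 0.41 for Acot8, -0.28 for Acad12 and 0.11 for Abcd4. None of these passed, nor did the interaction for any of these genes.

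Of 20 genes of the PPAR alpha axis and its cofactors, 0 passed in HFD+hIRI against ND+hIRI, where 1.35% of all genes did. There, 5 of 20 were under an unadjusted p of 0.05, all lower, where 27.2% of all genes were under it in either direction. In HFD+hIRI against HFD+Sham 2 of the 20 passed, where 19.9% of all genes did. These were Nrip1, a corepressor (log2 fold change 0.64, adjusted p = 0.0281), and Esrrg, an orphan receptor of oxidative tissues (log2 fold change -0.55, adjusted p = 0.0353). With ischemia averaged over diet, where 23.7% of all genes passed, log2 fold changes were 0.54 (adjusted p = 0.0138) for Nrip1, 0.49 (adjusted p = 0.035) for Rxra, the partner receptor of PPAR alpha, and 0.17 (adjusted p = 0.0466) for Prkaa1, an AMP kinase subunit. They were -0.70 (adjusted p = 0.025) for Pparg, -0.55 (adjusted p = 0.0458) for Esrra and -0.34 (adjusted p = 0.0469) for Esrrg. Among 31 PPAR target genes outside oxidation, 1 passed in HFD+hIRI against ND+hIRI, where 1.35% of all genes did. It was the lipid droplet coat gene Plin2 (log2 fold change 2.82, adjusted p = 0.0447), at 164, 227 and 376 CPM in ND+hIRI. In HFD+hIRI against HFD+Sham 6 of the 31 were higher (among them Fgf21, at no more than 2.01 CPM in any library) and 1 lower, where 19.9% of all genes passed. Pdk4, the kinase that turns pyruvate dehydrogenase off, was at 138, 138 and 119 CPM in HFD+Sham and 888, 698 and 489 CPM in HFD+hIRI (log2 fold change 2.39 ± 0.40, SE, n = 3 per group, adjusted p = 0.0127), and Plin2 was at 127, 112 and 103 CPM and 3660.1, 1185 and 589.9 CPM in the same groups (log2 fold change 3.99, adjusted p = 0.0114). The mitochondrial carrier gene Ucp2 (log2 fold change 1.02, adjusted p = 0.0285), the droplet coat gene Plin5 (log2 fold change 0.80, adjusted p = 0.0288) and the peroxisome assembly gene Pex16 (log2 fold change 0.34, adjusted p = 0.033) were higher as well, and the glycerol channel gene Aqp7 (log2 fold change -1.15, adjusted p = 0.0426) was lower. In ND+hIRI against ND+Sham, where 0% of all genes passed, Pdk4 had a log2 fold change of 2.28 (edgeR adjusted p = 0.115). There the log2 fold change was 1.28 for Plin2, 0.73 for Ucp2, 0.71 for Plin5, 0.21 for Pex16 and -0.50 for Aqp7. The interaction was 0.12 for Pdk4, 2.72 for Plin2 and 0.090 for Plin5, and passed for none of these genes.

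**Figure D5:**
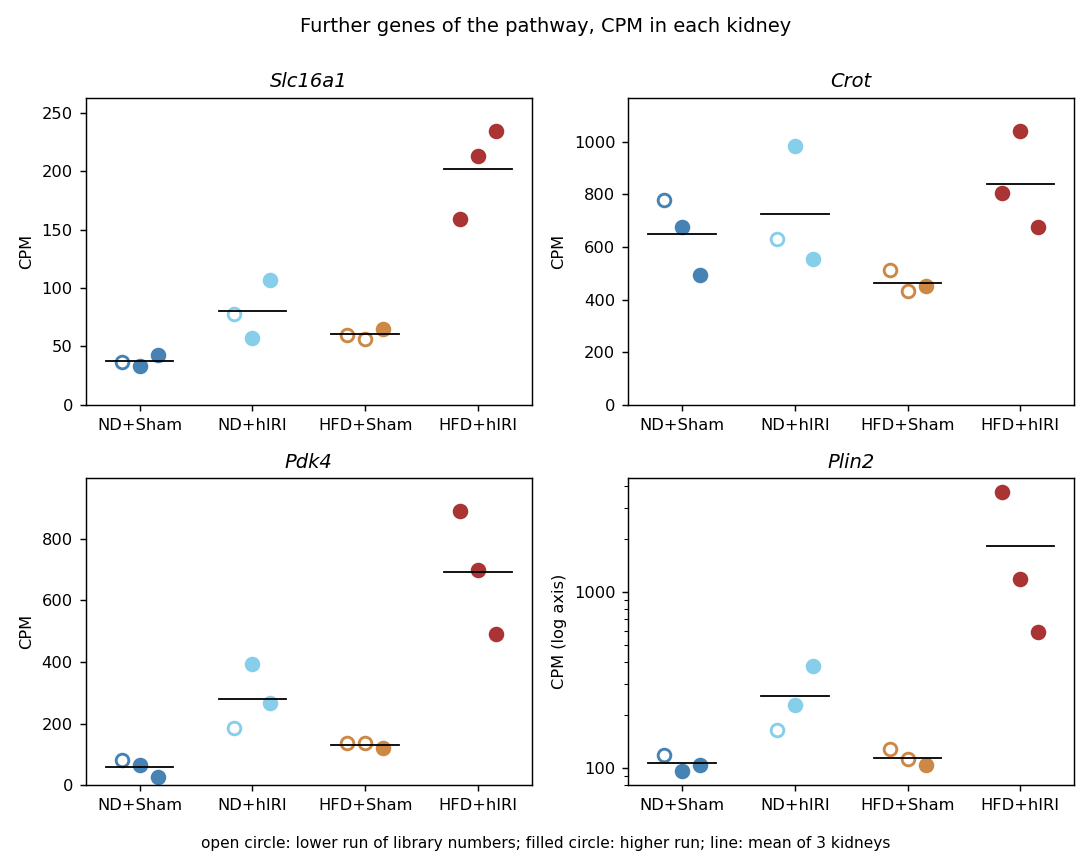
CPM of Slc16a1, Crot, Pdk4 and, on a log axis, Plin2 in each kidney; lines are means of 3 kidneys, open circles are the lower run of library numbers and filled circles the higher. Slc16a1, Pdk4 and Plin2 are higher in all 3 HFD+hIRI kidneys than in any other kidney.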

How the data were processed

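Kidney RNA of 12 mice was sequenced from paired-end libraries. The deposited read counts per gene were made by the authors with STAR 2.7.10a on mm10 and featureCounts (Subread 2.0.3), after FastQC 0.11.5, per the submitters' processing notes. Annotation, strand setting and any low-count filter were not given in the sources used here. Beside the counts, the authors deposited log2 CPM values, log2 fold changes, p-values and FDR from edgeR 3.42.4, and a score that holds signed linear fold changes, and none of these was used. Gene positions and exon lengths are those of the deposited table; upstream regions come from RefSeq (GRCm38.p6), and shared 75-base stretches from GENCODE M21 transcripts. The liver RNA sequencing was not analysed here.

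Counts were scaled by TMM, filtered with filterByExpr and fitted over all 12 libraries in edgeR 4.0.16 (R 4.3.3). The fit had a mean for each group and used the robust quasi-likelihood test. This pools the spread over groups. The test was tried on simulated data with the same spread setting in every group, so groups of unequal spread were not covered. P-values were adjusted by Benjamini-Hochberg over 14091 genes, with 0.05 as the threshold. SE is the log2 fold change divided by the square root of F. CPM uses TMM library sizes. Totals of 20874584 to 29451344 counts set the counting error. Each library was taken as 1 mouse. Members were found by symbol alone, but the set of symbols and the other lists were drawn up with earlier results of these data known.

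Every member is accounted for. Values per library are given for members past the threshold and, where none passed, for the 2 smallest p-values. In other lists up to 4 genes per direction are named. Other genes, and members described by sub-pathway, were added after their values had been seen. Alternatives covered scaling (by upper quartile, by DESeq2 size factors or by library totals alone), the filter (none, or a minimum of 10 counts in every library), the test (likelihood ratio test of edgeR, DESeq2 1.42.0, or limma 3.58.1 voom with quality weights), the model (only the libraries compared, a replicate block, or the run of library numbers as covariate), an adjusted p under 0.01, and each library, or ND+hIRI replicate 1 and HFD+hIRI replicate 1 as a pair, left out. A fit of the 8 libraries of the higher run was added after seeing the data. The labels give all 12 libraries the same batch. Some genes of the wider lists are counted but not reported by name.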

Additional observations from a re-analysis of the deposited data

How the results depend on the processing

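The number of members past the threshold is given here by comparison, with the share of all genes in the same fit in parentheses. In HFD+hIRI against ND+hIRI it was 1 (1.35%), and it became 4 (7.82%) with the edgeR likelihood ratio test, 7 (12.6%) with DESeq2, 7 (5.20%) with limma voom with quality weights, 6 (0.646%) with the run of library numbers as covariate, and 0 with only the libraries compared (0%), at an adjusted p under 0.01 (0.0142%) or with the 8 libraries of the higher run (0%). In HFD+Sham against ND+Sham it was 0 (0.0142%), and 1 (1.61%; Amacr, lower) with only the libraries compared. In HFD+hIRI against HFD+Sham it was 3 (19.9%), and it became 10 (41.1%) with limma voom, 5 (17%) without ND+hIRI replicate 1 and HFD+hIRI replicate 1 together, and 0 with the run as covariate (0.128%), at an adjusted p under 0.01 (0.163%) or with the 8 libraries (0%). With only the libraries compared it was 1 (5.98%), Bdh1, and Cpt1a, Eci2 and Amacr were lost. In ND+hIRI against ND+Sham it was 0 (0%), and 1 with DESeq2 (3.15%), 1 with limma voom (4.36%), and 2 without both of those replicates (16.5%). For diet averaged over surgery it was 1 (2.75%), and it became 2 (2.65%) with library totals alone, 5 (7.43%) with the likelihood ratio test, 7 (10.3%) with DESeq2, 9 (10.2%) with limma voom, 6 (2.63%) with the covariate, 10 (4.01%) without both replicates, and 0 at an adjusted p under 0.01 (0.163%) or with the 8 libraries (0%). For ischemia averaged over diet it was 3 (23.7%), and it became 6 (27.3%) with the likelihood ratio test, 6 (31.7%) with DESeq2, 7 (40.2%) with limma voom, 11 (8.7%) with the covariate, 7 (32.9%) without both replicates, 1 (2.55%) at an adjusted p under 0.01 and 0 (0.0284%) with the 8 libraries. The interaction stayed at 0 in every alternative run. Sign was followed for members past the threshold, or with the 2 smallest p-values where none passed, each in that comparison. It was also followed for Acaa2, Hadhb, Acadvl and Acadl in HFD+hIRI against ND+hIRI and for diet averaged over surgery. None of these values changed sign under any alternative. Some other mitochondrial genes did in HFD+hIRI against ND+hIRI with library totals alone.

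Leaving out 1 library gave between 0 and 3 members in HFD+hIRI against ND+hIRI, with 3 without HFD+hIRI replicate 3 (18.2% of all genes). In HFD+hIRI against HFD+Sham it gave between 0 and 4, with 4 without ND+hIRI replicate 1 (22.8%). There, 0 passed without HFD+Sham replicate 1 (1.96%), replicate 2 (0.0071%) or replicate 3 (0.319%), and 1 without ND+Sham replicate 2 (15.2%). For diet averaged over surgery it gave between 0 and 8, with 8 without ND+hIRI replicate 1 (2.14%). That count was 2 without HFD+hIRI replicate 1 (3.41%) or 3 (10.4%). For ischemia averaged over diet it gave between 2 and 6, with 6 without HFD+hIRI replicate 1 (21.6%). In the other 3 it was 0 throughout, where no fit called more than 3.77% of all genes. Where 1 arm lost a kidney the spread was still pooled over groups. The causes of these shifts were not tested.

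No pairing of the kidneys by replicate number was stated in the sources used here. Of 18 pairs with the same number, 6 had residuals correlated above 0.1 (range -0.417 to 0.215), and 6 of 12 libraries correlated best with their own number. Whether the numbers pair the kidneys was not tested. With the replicate block the counts were 4 in HFD+hIRI against ND+hIRI (1.04% of all genes), 5 in HFD+hIRI against HFD+Sham (13.3%), 5 for diet (2.88%) and 5 for ischemia (17.7%).

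With 3 kidneys per group and a spread pooled over groups of unequal spread, a member that missed the threshold is not shown to be equal between groups. Each member had at least 556 reads in each library.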
